A study of Homo sapiens with 6 samples.

Results

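Cell surface proteins that are used or studied as targets of imaging agents, antibodies and engineered T cells in prostate cancer were examined at the RNA level in C4-2 cells. The group held the 9 genes FOLH1, PSCA, TMEFF2, CD276, CD46, CEACAM5, DLL3, CDCP1 and F3, chosen by symbol from the 55765 gene symbols of the count files. Of these 9 genes, 7 had enough counts to be tested among 16835 genes, while CEACAM5 and F3 were below the filter on low counts. C4-2 is a single established human prostate cancer cell line, derived from LNCaP and grown as a model of castration-resistant disease, so the replicates describe cultures of 1 line. Cells grown in medium with FBS received the solvent DMSO (3 libraries) or 1 nM of the synthetic androgen R1881 (3 libraries) for 72 h. The androgen dose is called SAL, for supraphysiological androgen level, and the comparison asks which transcripts differ between SAL and the solvent control. The total RNA was sequenced, so the values are transcript levels and not amounts of protein on the cell surface.

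Surface proteins are reached from outside the cell, which is why antibodies, small ligands and engineered T cells can be directed at them. Some of the 9 proteins are best known from the luminal prostate epithelium, some from many epithelial tumours, and some from neuroendocrine tumours. In luminal prostate cells the androgen receptor acts as a ligand-dependent transcription factor that raises some genes and lowers others, and PSMA, the product of FOLH1, is widely described as a protein whose level rises when androgen signalling is blocked.

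Each library held between 6931042 and 9776990 counts after rRNA genes were removed, which had taken between 11.9% and 27.8% of the gene counts. Levels are given as CPM, counts scaled to a common library size with TMM factors. Libraries with the same replicate number deviated together, so all tests compared SAL with DMSO within replicate numbers by edgeR's quasi-likelihood test with Benjamini-Hochberg adjustment over all genes tested. KLK3, which encodes PSA and is a standard androgen-induced gene, rose 2.31-fold (adjusted p = 3.33e-07). All 11 luminal prostate markers were tested, with summed CPM from 1954 to 5622 in DMSO and from 4099 to 10105 in SAL, and 7 of them rose. KRT5 (basal cells), PTPRC and CD3E (leukocytes) and CDH5 (endothelium) had 0 counts in all 6 libraries, but other markers of these lists had some. The endothelial marker VWF was tested, with 4, 27 and 20 counts in DMSO and 5, 35 and 29 in SAL. The leukocyte marker CD68 had between 1 and 4 counts in each library. The basal list summed to at most 0.372 CPM, the leukocyte list to at most 0.534 and the endothelial list to at most 3.84. Only 2 of the 3 endothelial markers were in the count files, since PECAM1 was missing. The fibroblast list summed to between 2.43 and 11.1 CPM. Neuroendocrine genes were low as well, with 3 of 12 tested, a summed CPM between 5.38 and 14.6, and CHGB, NEUROD1 and FOXA2 at 0 counts.

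Of the 7 surface targets tested, 1 was called. TMEFF2 rose in SAL, and the other 6 genes tested did not pass the threshold of an adjusted p under 0.05. In all genes tested the percentage called up was 11.5, and the percentage called down was 9.37, so 1 of 7 genes up was close to the share among all genes and is no result about the group. At an unadjusted p under 0.05, CD276 joined TMEFF2 on the upper side and still 0 genes were lower. The share of all genes at this unadjusted threshold was not counted. No count at that threshold, here or below, is therefore a result about a list. DESeq2 and limma voom, both with the replicate block, also called TMEFF2 up and 0 genes down. The members' median log2 fold change was 0.07, against -0.0011 over all genes. All 3 pairs were higher in SAL for TMEFF2, CD276, CDCP1 and PSCA (4 of 7 genes, against 25.9 percent of all genes), and no member was lower in all 3 pairs (25.3 percent of all genes). The DMSO and SAL ranges of CPM overlapped for each of the 7. In all genes the SAL range lay wholly above the DMSO range in 3.78 percent and wholly below it in 3.73 percent. For 7 genes such shares come close to 0, so the overlap is no result about the group.

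**Figure D1:**
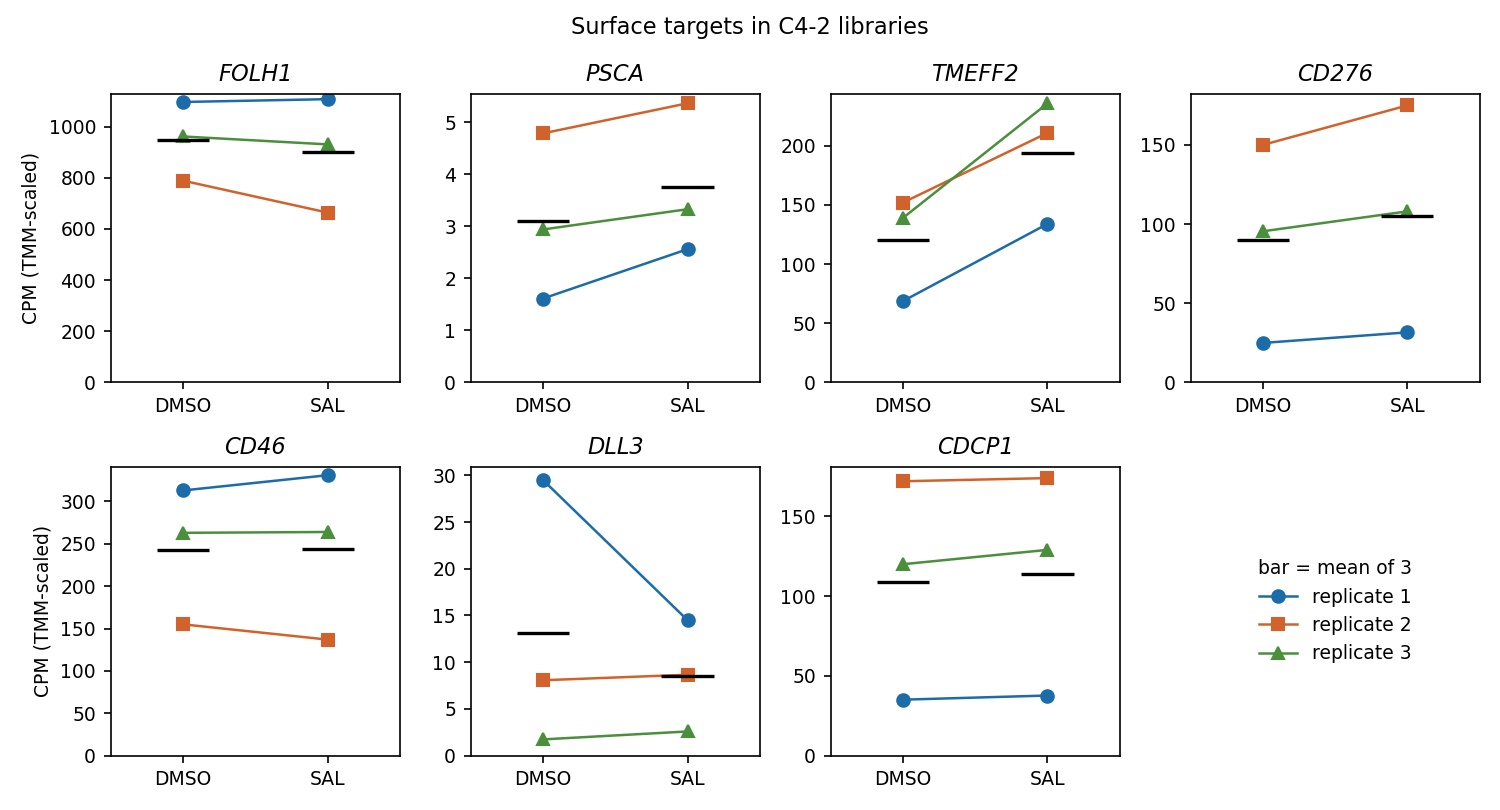
CPM (TMM-scaled, vertical axes starting at 0) of the 7 surface targets tested in DMSO and SAL libraries, with same-numbered replicates joined by a line and the mean of 3 libraries as a bar. The lines of TMEFF2 all climb, while for CD276, CD46 and CDCP1 the distance between replicates is much larger than the slope of any line.

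TMEFF2 encodes a transmembrane protein with an EGF-like and follistatin-like domains that is expressed mainly in brain and prostate. In GRCh37 the gene spans chr2:192813769-193059659 on the minus strand. The DMSO libraries held 554, 1108 and 1040 counts and the SAL libraries 1044, 1929 and 1913. These correspond to 68.6, 152 and 139 CPM in DMSO and 134, 211 and 236 CPM in SAL. Replicate 1 was the lowest library in both groups, and its SAL value lay below DMSO replicates 2 and 3. The groups thus overlapped, although every SAL library was higher than the DMSO library of the same replicate number. The paired log2 changes were 0.96, 0.48 and 0.76, and the fitted log2 fold change was 0.73 (SE 0.10, 95% interval 0.51 to 0.95, adjusted p = 0.000120, n = 3 pairs), a 1.66-fold rise (1.42 to 1.94). The rise held with each replicate number left out, between 0.62 and 0.84 on the log2 scale. Without the replicate block the log2 fold change was 0.69 and the adjusted p was 1.00, since the distance between replicates then counted as error. In bulk RNA more cells with the transcript and more transcript per cell cannot be told apart.

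The sequence before the annotated start of TMEFF2 is shown because TMEFF2 is the only surface target that was called. It comes from RefSeq in the build GRCh38.p14 (chr2:192194934-192195183, minus strand, read 5′ to 3′ along the gene, 67.6% G and C).
TMEFF2 upstream: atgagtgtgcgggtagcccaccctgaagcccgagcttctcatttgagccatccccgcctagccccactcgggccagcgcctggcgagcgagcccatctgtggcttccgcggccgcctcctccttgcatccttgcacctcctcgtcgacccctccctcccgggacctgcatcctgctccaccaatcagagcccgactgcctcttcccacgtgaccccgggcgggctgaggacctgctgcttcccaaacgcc
No letter is in capitals because the androgen receptor half-site AGAACA, searched on both strands (TGTTCT on the other strand), does not occur in these letters or in the 50 bases that follow. RefSeq windows of 300 bases were at hand for 6 of the 9 genes. The half-site occurs in the windows of CD46 and CEACAM5 and not in those of TMEFF2, CDCP1, CD276 and F3, while 14.8% of 35116 promoter windows hold it. The palindrome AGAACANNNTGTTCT, which contains the half-site on each strand, occurs in 1 of the 35116 windows and in none of these 6 genes. The absence of these letters from a short window says nothing about binding of the receptor elsewhere.

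FOLH1 encodes PSMA, a glutamate carboxypeptidase of the cell surface and the target of PSMA ligands for imaging and radiotherapy. It lies at chr11:49166644-49230190 on the minus strand (GRCh37). FOLH1 had the most counts of the 9 genes, with 8854, 5768 and 7197 counts in DMSO and 8651, 6056 and 7559 in SAL. On the CPM scale the DMSO libraries stood at 1097, 789 and 962 and the SAL libraries at 1108, 664 and 931. Replicate 2 was lowest in both groups and the groups overlapped. The paired log2 changes were 0.01, -0.25 and -0.05, and the fitted log2 fold change was -0.09 (SE 0.10, adjusted p = 0.545). Its 95% interval ran from -0.30 to 0.11, which corresponds to a fold between 0.815 and 1.08.

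Part of FOLH1 cannot be told from FOLH1B, a transcribed pseudogene on the other arm of chromosome 11 (chr11:89372405-89431767, plus strand, GRCh37). Of 1319 stretches of 50 bases in the coding exons of FOLH1, 641 (48.6%) also occur in FOLH1B, and over all its exons the share was 18.9%. Of 10 coding exons that are between 60 and 100 bases long, 3 are identical in FOLH1B. A pair with no difference and a pair with 1 difference are shown, because a read that lies wholly in the first matches both genes, and htseq-count by default leaves out reads with several matches. The first is chr11:49178269-49178359 in FOLH1 and chr11:89421752-89421842 in FOLH1B, and the second is chr11:49190747-49190810 in FOLH1 and chr11:89409273-89409336 in FOLH1B, with the differing base in capitals.
FOLH1, identical exon: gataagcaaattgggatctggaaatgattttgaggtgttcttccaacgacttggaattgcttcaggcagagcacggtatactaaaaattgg
FOLH1B, identical exon: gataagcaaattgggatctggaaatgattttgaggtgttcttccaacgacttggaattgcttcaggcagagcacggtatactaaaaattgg
FOLH1, exon with 1 difference: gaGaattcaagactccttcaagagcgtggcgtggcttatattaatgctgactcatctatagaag
FOLH1B, exon with 1 difference: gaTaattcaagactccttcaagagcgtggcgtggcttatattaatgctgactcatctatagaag
FOLH1B was assigned 46, 10 and 20 counts in DMSO and 108, 7 and 13 in SAL, far fewer than FOLH1 in every library. Its direction differed between pairs (1.24, -0.67 and -0.66 on the log2 scale, adjusted p = 0.522). With the counts of both genes summed, an alternative chosen after seeing the data, the log2 fold change was still -0.09 (adjusted p = 0.560).

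PSCA, a small GPI-anchored protein of the LY6/uPAR family, was low. The DMSO libraries held 13, 35 and 22 counts and the SAL libraries 20, 49 and 27, which gave 1.61, 4.79 and 2.94 CPM in DMSO and 2.56, 5.37 and 3.33 CPM in SAL. Each pair was higher in SAL, but the groups overlapped and the log2 fold change of 0.29 (SE 0.28, 95% interval -0.30 to 0.88) did not pass (adjusted p = 0.510). Counts this small leave a wide interval. PSCA lies at chr8:143751726-143764143 (GRCh37), and 367 bp of its exons overlap those of JRK on the other strand. The counting ignored strand, so reads wholly within a stretch shared by both genes are ambiguous and left out. This overlap is taken from a newer annotation than the one counted.

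CD276 (B7-H3), an immune checkpoint protein of the B7 family found on many tumours, lies at chr15:73976307-74006855 on the plus strand. It had 200, 1095 and 714 counts in DMSO and 246, 1596 and 874 in SAL. The levels were 24.8, 150 and 95.4 CPM in DMSO and 31.5, 175 and 108 CPM in SAL. Replicate 1 lay far below the others in both groups, and the groups overlapped almost completely. Every pair was higher in SAL, with log2 changes of 0.34, 0.22 and 0.17. The fitted value was 0.24 (SE 0.10, 95% interval 0.03 to 0.45), with an unadjusted p of 0.0257 and an adjusted p of 0.0966, above the threshold.

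CDCP1, a transmembrane substrate of Src family kinases linked to loss of adhesion, lies at chr3:45123769-45187914 on the minus strand. It had 35.1, 172 and 120 CPM in DMSO and 37.7, 174 and 129 CPM in SAL. Replicate 1 was again the lowest in both groups, and within pairs the log2 changes were 0.10, 0.01 and 0.11. The fitted value was 0.07 (SE 0.09, 95% interval -0.13 to 0.27, adjusted p = 0.646).

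CD46, a complement regulator on nearly all nucleated cells, lies at chr1:207925382-207968858 on the plus strand and shares 797 bp of exon with MIR29B2CHG on the other strand. Its levels were 313, 155 and 263 CPM in DMSO and 331, 137 and 264 CPM in SAL. Replicate 2 was the lowest in both groups. The log2 changes within pairs were 0.08, -0.17 and 0.01, and the fitted value was -0.03 (SE 0.09, 95% interval -0.22 to 0.17, adjusted p = 0.881). This sign is not stable, as it turned positive without the block (0.0035), with a correction for GC content and length (0.0061) and without replicate 2 (0.0272).

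DLL3, an inhibitory Notch ligand that is a target in neuroendocrine tumours, lies at chr19:39989535-39999121 on the plus strand. It had 238, 59 and 13 counts in DMSO and 113, 79 and 21 in SAL. The levels were 29.5, 8.07 and 1.74 CPM in DMSO and 14.5, 8.66 and 2.59 CPM in SAL. Replicate 1 was highest in both groups and was the only pair lower in SAL, with log2 changes of -1.01, 0.10 and 0.51. The fitted value was -0.38 (SE 0.26, 95% interval -0.96 to 0.19, adjusted p = 0.352), and without replicate 1 it turned to 0.24. Of the neuroendocrine marker genes, 3 were tested and 0 were called by edgeR, DESeq2 or limma voom, with 0 at an unadjusted p under 0.05. CHGA stood at 1.77 ± 0.70 CPM in DMSO and 1.02 ± 0.44 in SAL, and SYP at 1.36 ± 0.22 and 2.01 ± 0.55.

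CEACAM5, a GPI-anchored adhesion protein used as a target in carcinomas, lies at chr19:42212504-42234353 on the plus strand and had 0 counts in all 6 libraries. The limit that a count of 0 allows, 3 counts, corresponded to between 0.307 and 0.433 CPM. F3 (tissue factor), the receptor that starts coagulation, lies at chr1:94994729-95007315 on the minus strand. It had 2, 3 and 1 counts in DMSO and 1, 1 and 1 in SAL. Neither gene exceeded 3 counts in any library, so no fold or test is given and neither was detectable above this depth.

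Levels of different genes were set side by side only per length, as CPM per kb of exon. The lengths came from a newer annotation (GENCODE v44) than the one counted (v19). What this does to the order was not tested. FOLH1 stood at 178 ± 29.0 in DMSO and 169 ± 41.9 in SAL (SD, n = 3) and was above the next gene, TMEFF2, in 6 of 6 libraries. TMEFF2 stood at 20.4 ± 7.63 and 33.1 ± 9.10 and was above CD276 in 5 of 6. CD276, CDCP1 and CD46 had means between 15.7 and 19.1 CPM per kb in both groups. Their order was not stable, since CD276 was above CDCP1 in 2 libraries and CDCP1 above CD46 in 4. CD46 was above DLL3 in 6 of 6 libraries. DLL3 (5.00 in DMSO, 3.27 in SAL) was above PSCA (1.77 and 2.13) in 4, and PSCA was above F3 in 6 of 6. With the longest transcript as length, 3 genes took another place in this order. CD46 (mean of all libraries 31.1 CPM per kb) then stood above CD276 (29.5) and CDCP1 (18.7), so their shared range depends on the length chosen.

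**Figure D2:**
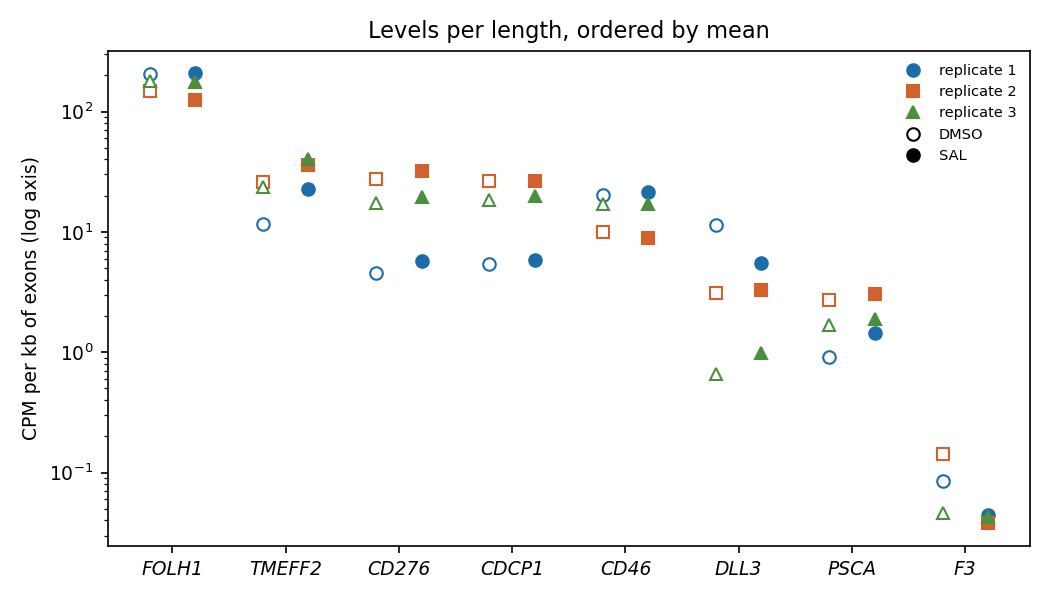
Levels per length of the surface targets (CPM per kb of exons, log axis) in each library, with open symbols for DMSO, filled symbols for SAL and 1 symbol shape per replicate number. FOLH1 lies above all others, CD276, CDCP1 and CD46 share 1 range, F3 rests on at most 3 counts, and CEACAM5, with 0 counts, is not drawn.

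For each of the 7 surface targets tested the replicate number took a larger share of the sum of squares than the treatment. These shares are not divided by degrees of freedom, of which the replicate number has 2 and the treatment 1. Per degree of freedom the treatment was the larger for TMEFF2, and the replicate number for the others. The replicate number took 99.8% of the sum of squares of log2 CPM for CDCP1, 98.7% for CD46, 98.6% for CD276, 93.9% for DLL3, 92.2% for FOLH1 and 88.0% for PSCA, against a median of 85.4% over all genes. TMEFF2 had 56.0% for the replicate number and 41.1% for the treatment, where the median gene had 5.88% for the treatment. Replicate 1 was lower than the mean of replicates 2 and 3 by 2.19 (CD276) and 2.01 (CDCP1) on the log2 scale, but higher by 2.21 for DLL3. The exon GC content of these 3 genes was 58.7%, 50.9% and 63.9%. Replicate 1 was lower by 0.89 for PSCA (62.1% GC) and by 0.91 for TMEFF2 (36.0%). For FOLH1 (40.8%) and CD46 (37.0%) replicate 1 was higher, by 0.41 and 0.72. The part that base composition or library quality had in these distances was not tested beyond the correction for GC content and length, which gave a log2 fold change of 0.78 for TMEFF2 (adjusted p = 2.41e-06).

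Across the 6 libraries, which share replicate numbers and treatment, CD276 followed CDCP1 (r = 0.99) and CD46 followed FOLH1 (r = 0.98), while FOLH1 and PSCA ran in opposite directions (r = -0.92). Such values are common here. For CD276, 2063 of 10308 other genes of at least 10 CPM had r of at least 0.95, led by WASF2, QRICH1 and PVR, and for FOLH1 it was 646 genes, led by ANKRD49. TMEFF2 had the fewest, 125 genes, led by OTUD7B (r = 0.999), CBLL1 (0.997) and CDYL2 (0.995). These are descriptions over 6 points.

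Other surface targets of solid tumours were counted for comparison, and whether they differed from the 9 genes was not tested. Of 25 such genes 16 were tested, 4 rose and 3 fell, with a median log2 fold change of 0.19, while 11.5 percent of all genes rose and 9.37 percent fell. SLC44A4, a choline transporter family member, rose by 1.12 on the log2 scale (adjusted p = 1.69e-06). The metalloreductases STEAP2 (0.60) and STEAP1 (0.51) and the receptor ERBB3 (0.51) rose as well. STEAP2 was abundant, with 1416 ± 195 CPM in DMSO and 2145 ± 222 in SAL, and its groups did not overlap. ALCAM, a cell adhesion molecule, fell by 0.45 on the log2 scale, and so did the ectonucleotidase ENPP3 (-1.40) and MET (-2.41). But ENPP3 and MET rest on at most 19 counts in a library, and ENPP3 was not called by DESeq2 (adjusted p = 0.215). Both had at most 7 counts in a SAL library. They passed the filter on low counts only through DMSO, where they were higher, so the filter leaned towards a fall. EGFR (0.18, adjusted p = 0.200), SLC39A6 (0.25, 0.0624), EPCAM (0.20, 0.166) and ERBB2 (0.20, 0.197) did not pass. CD44 and MSLN had 0 counts. The counts depended on replicate 3, without which 2 genes rose and 1 fell, and without replicate 2 also 1 gene fell.

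**Figure D3:**
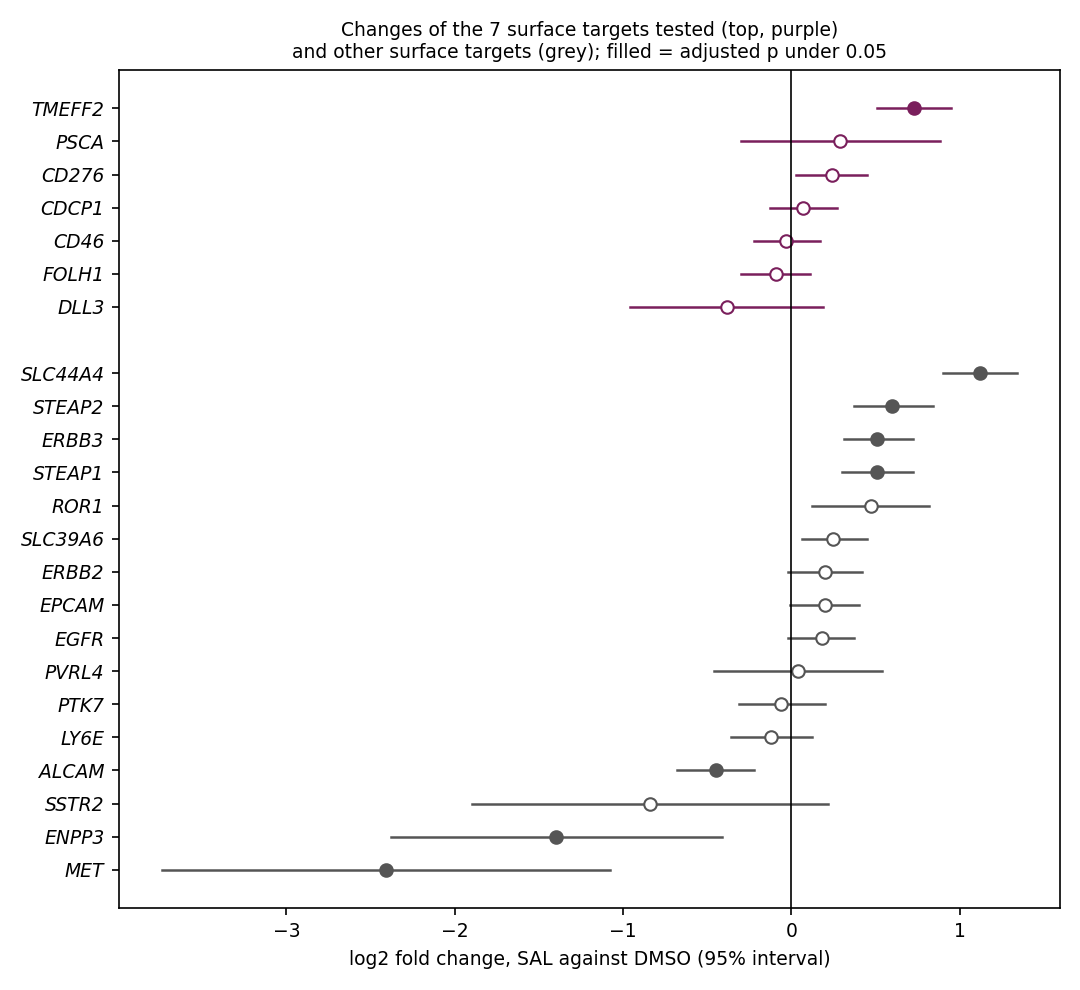
Log2 fold change of SAL against DMSO with its 95% interval for the 7 surface targets tested (purple) and 16 other surface targets (grey), with filled points for an adjusted p under 0.05. Among the 7, the interval of TMEFF2 lies farthest from 0, that of CD276 begins just above 0, and those of DLL3 and PSCA are the widest.

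Relatives and pathway partners of the surface targets were counted in 9 lists of 96 genes, of which 50 were tested, 8 rose and 9 fell. Their log2 fold changes had a median of 0.08. The same shares of all genes, 11.5 percent up and 9.37 percent down, stand beside these and the counts of each list, and lists of this size carry no test. Without replicate 3 only 1 of them fell, and DESeq2 called 5 lower. In the family of FOLH1, NAALAD2, a related peptidase, fell by 0.75 (adjusted p = 0.00104), the transferrin receptor TFRC by 0.41 (adjusted p = 0.00406) and NAALADL2 by 0.43 (adjusted p = 0.00440), all 3 lower in every pair. TFR2 (-0.38, adjusted p = 0.298) and FOLH1B did not pass. Of 5 LY6/uPAR genes tested, the family of PSCA, 0 passed with edgeR, DESeq2 or limma voom and 1 had an unadjusted p under 0.05. That gene was CD59, at 0.30 (adjusted p = 0.0614). In the B7 family of CD276, 1 of 5 tested genes was called, NCR3LG1, the ligand of NKp30, which fell by 0.53 (adjusted p = 0.00129). In the CEACAM family 7 of 11 genes had 0 counts, and the only one tested, CEACAM19, did not pass (0.14, adjusted p = 0.825). PDGFA, listed beside TMEFF2 because TMEFF2 binds PDGF-AA, fell by 0.58 (adjusted p = 0.0125), a call lost with DESeq2 (adjusted p = 0.0526).

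For the Notch pathway around DLL3, 14 of 20 genes were tested, of which edgeR called 3 up and 2 down (11.5 percent and 9.37 percent of all genes) and DESeq2 called 2 in all, JAG1 and HES6 (adjusted p = 0.00255, against 0.146 with edgeR). The ligand JAG1 rose from 40, 128 and 95 counts to 183, 748 and 588, a log2 fold change of 2.33 (SE 0.13, adjusted p = 5.46e-09), and its groups did not overlap. The Notch target genes HES1 (0.59, adjusted p = 0.0102) and HES4 (0.69, adjusted p = 0.0205) also rose. The receptor NOTCH1 fell by 0.39 (adjusted p = 0.0143) and the ligand JAG2 by 0.37 (adjusted p = 0.0319). With DESeq2 these 4 calls were lost, at adjusted p of 0.0512 for HES1, 0.0888 for HES4, 0.0724 for NOTCH1 and 0.152 for JAG2. NOTCH2 (0.26, adjusted p = 0.101) and the protease ADAM10 (0.10, adjusted p = 0.546) did not pass.

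Among complement regulators beside CD46, CLU, a secreted chaperone and inhibitor of the terminal complex, rose from 34, 50 and 55 counts to 120, 288 and 273 (log2 fold change 2.11, SE 0.17, adjusted p = 2.57e-07). CD55, the decay accelerating factor, fell by 0.60 (adjusted p = 0.0245) with 112, 103 and 66 counts in DMSO and 67, 88 and 48 in SAL, a call lost with DESeq2 (adjusted p = 0.127). Of 8 tested partners of CDCP1, 0 passed with edgeR, DESeq2 or limma voom. At an unadjusted p under 0.05 there were 5, without a share of all genes to set beside them. These 5 were ITGB1 (0.22, adjusted p = 0.0922), PRKCD (0.25), ST14 (0.21), PLAT (-0.71) and FYN (-0.95), the last 4 named after their values were seen. CDH1 stood at -0.08 (adjusted p = 0.615).

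In the tissue factor pathway, 9 of 14 genes were tested although F3 itself was at the limit of detection. Coagulation factor V (F5) rose from 3, 9 and 9 counts to 86, 79 and 142, a log2 fold change of 3.71 (SE 0.31, adjusted p = 6.00e-07). With at most 9 counts in a DMSO library, F5 would not have passed the filter on low counts through DMSO alone. The filter thus leaned towards a rise, and the size of this change rests on few DMSO counts. The protease-activated receptors F2RL1 (1.29, adjusted p = 1.31e-06) and F2RL2 (1.80, adjusted p = 0.000157) rose, as did the phospholipid-binding ANXA5 (0.41, adjusted p = 0.00488). But F2RL2 held only 23, 7 and 18 counts in DMSO, against 73, 24 and 82 in SAL. Like F5, F2RL2 would not have passed the filter through DMSO alone, so the filter leaned towards its rise. TFPI, the inhibitor of tissue factor, fell by 0.50 (adjusted p = 0.00108). The thrombin receptor F2R (-0.37, adjusted p = 0.0625) and PROS1 (0.71, adjusted p = 0.0535) did not pass.

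**Figure D4:**
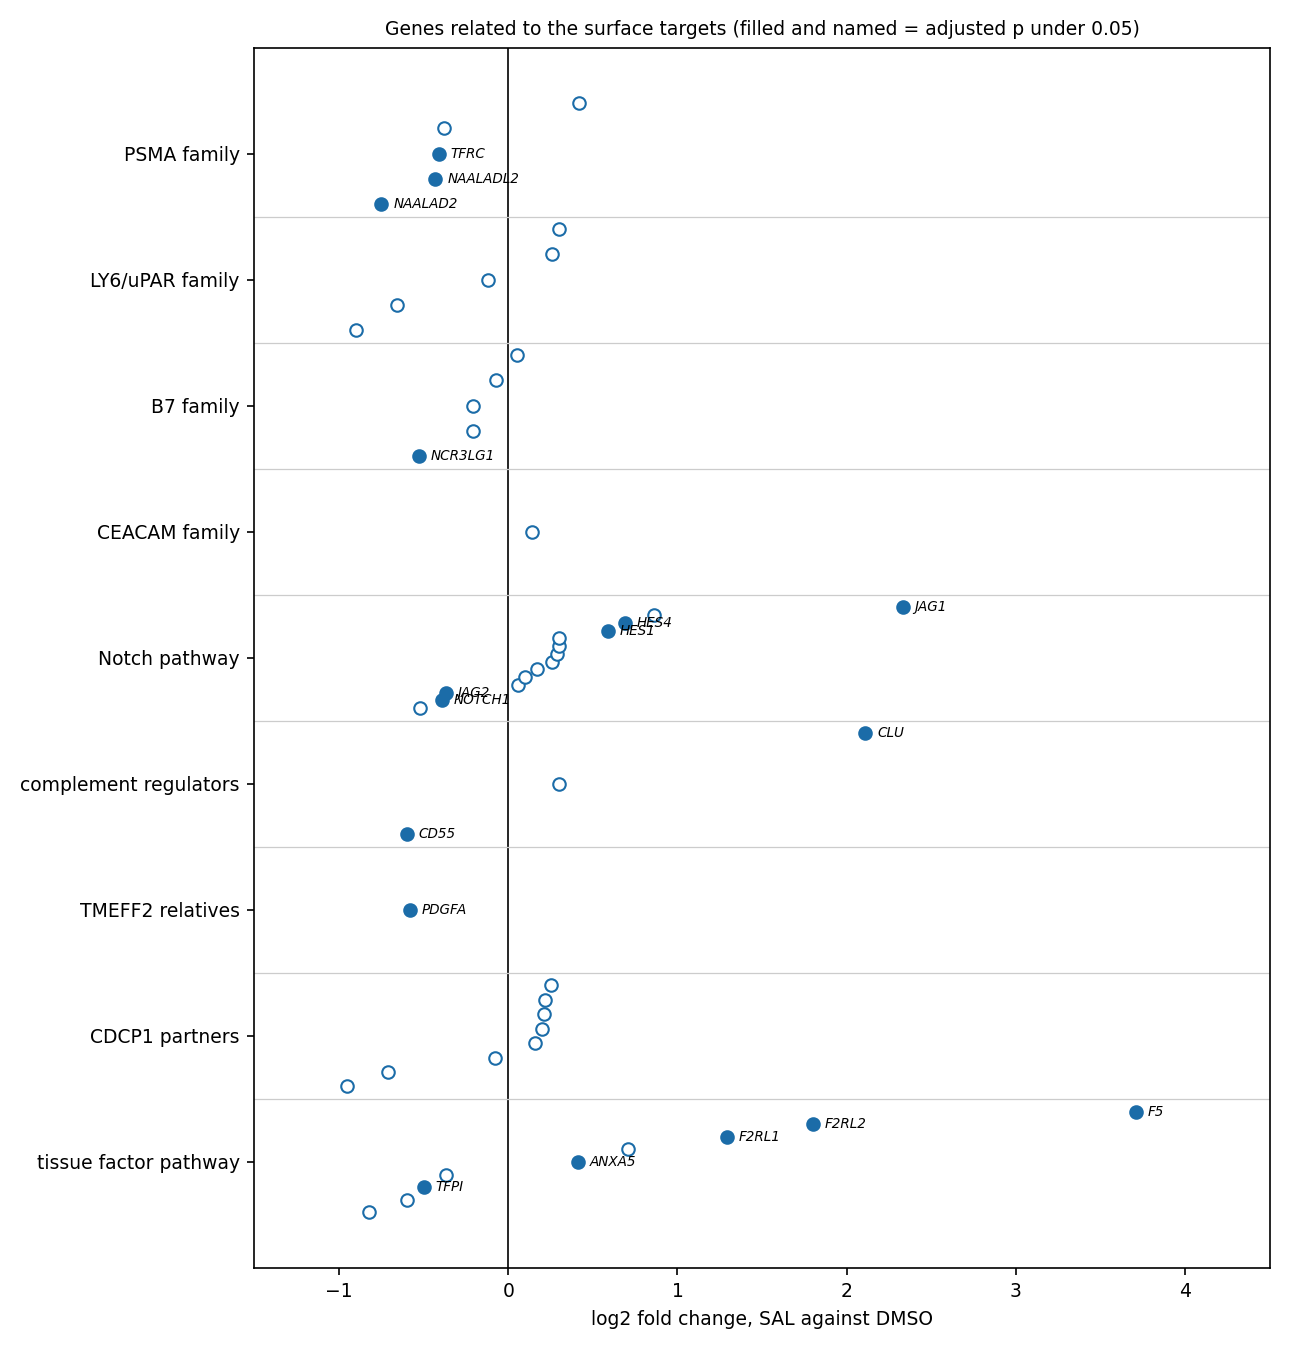
Log2 fold change of SAL against DMSO for the 50 tested relatives and partners of the surface targets, grouped by list (CD59 stands in 2 lists), with genes of an adjusted p under 0.05 filled and named. F5, JAG1 and CLU lie farthest to the right, and the 3 called genes of the PSMA family (FOLH1 relatives) lie below 0.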

How the data were processed

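Raw counts per gene symbol, not normalized, were deposited for 6 C4-2 libraries. The authors trimmed the reads, mapped read 1 to hg19 with TopHat2 2.1.0 and counted it with HTSeq 0.11.2 in gencode v19 exons, ignoring strand. Here 523 rRNA symbols were removed and filterByExpr was applied by group, so a gene with enough counts in only 1 group was also tested. TMM factors and the quasi-likelihood test of edgeR 4.0.16 (R 4.3.3) followed, with the replicate number as a block, since the study's test was paired, cultures were independent and same-numbered libraries deviated together (r = 0.89, 0.86 and 0.74). Rows of reads outside genes (24.0 to 48.3% of mapped-read tallies) were left out. The SE is the size of the log2 fold change over the root of F, and pair changes used a prior count of 2. The fit was also run on counts simulated from its own model, which checks the code and not how well the model suits these libraries. DESeq2 1.42.0, limma 3.58.1, other scalings, filters and left-out replicates were alternatives. The members and lists were chosen with earlier results of these data known. Named genes are all 9 targets, KLK3, up to 4 called and 2 abundant uncalled genes of each list, and 3 genes per target for likeness. For other surface targets the limits were 6 and 4. ENPP3, genes at 0, JAG2, ANXA5, HES6, CHGA, SYP, VWF and CD68 were added after their values were seen. 1 other surface target is not reported here. Gene positions, exon lengths, GC content and exon overlaps come from GRCh37 with GENCODE v44 lifted to it, newer than the annotation counted. Promoters come from RefSeq (GRCh38.p14).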

Additional observations from a re-analysis of the deposited data

How the results depend on the processing

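Over 92 alternative values of the 7 surface targets, 87 kept their direction and side of the threshold, 1 lost its call and 4 changed sign. The lost call was TMEFF2 without the replicate block, where 18 genes rose and 3 fell in all and 0 surface targets, 0 related genes up, 0 related genes down, 0 other surface targets up and 0 down were called. With a minimum size of 1 on the log2 scale, 0 surface targets rose. The sign changes were CD46 without the block (0.0035), with GC content and length (0.0061) and on leaving out replicates (-0.0797 to 0.0272), and DLL3 on leaving out replicates (-0.7371 to 0.2401). Leaving out replicates moved all genes called up between 750 and 2443 and down between 483 and 1955, related genes down between 1 and 10, and other surface targets up between 2 and 5 and down between 1 and 2. DESeq2 with the block called 950 genes and 5 related genes down. With at least 10 counts in every library, 1 other surface target fell. With the longest transcript, 3 levels changed place. The cause of these shifts was not tested, except that fewer samples or genes enter some of them. Depth limits PSCA, F3 and CEACAM5, which had at most 49 counts in a library.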
